A study of Homo sapiens with 18 samples.

Results

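DNA replication and G1/S genes are the genes whose products load, fire and copy replication origins and those that carry a cell from G1 into S phase. They were followed here as 42 genes, taken by symbol from a table of read counts over 56609 gene symbols in 3 chronic lymphocytic leukemia (CLL) cell lines, and all 42 symbols were found. Before S phase, the origin recognition complex, CDC6 and CDT1 load the MCM helicase onto origins, and CDC45 and the GINS complex then turn it into a working helicase on which the polymerases, the PCNA clamp and its loader act. Transcription of most of these genes is known to follow the cell cycle, under E2F transcription factors that are held back by the retinoblastoma proteins until cyclin-dependent kinases, among them those bound to cyclin E, release them. CLL cells in blood are largely outside the cell cycle and divide in lymphoid tissue, while established lines divide in culture.

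HG3, MEC2 and PCL12 are EBV-positive lines established from CLL, and each stands here for itself alone. CpG-ODN2006, an oligonucleotide with unmethylated CpG motifs that activates the endosomal receptor TLR9, was added at 2.5 µg/ml for 4 h. Each line had 3 CpG-stimulated and 3 unstimulated samples, which makes 18 libraries in 6 groups with no genetic change or other agent named in the labels. The comparisons ask how high these genes stood in each unstimulated line and whether CpG moved them within 4 h.

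The libraries held between 20382943 and 67308932 counts, and values are given as CPM, each library's counts scaled to a common total after TMM adjustment of library size. Of the 18 libraries, 16 had a mitochondrial share between 2.81% and 9.27%, and it was 20.2% for unstimulated replicate 2 of HG3 and 19.7% for stimulated replicate 2 of MEC2. Both are called mitochondria-rich here. Replicates 2 and 3 of PCL12, stimulated or not, carried transcripts typical of MEC2 at 29.0% to 31.3% of the MEC2 level (median of 45 genes, picked for being low in PCL12 replicate 1). Results between the lines are also given without these libraries. The 6 B cell markers summed to between 2115 and 3673 CPM in every library, the T and NK cell markers to at most 5.59 CPM and the monocyte markers to at most 3.86 CPM. The 5 stromal markers summed to between 6.66 and 89.7 CPM, of which COL1A1 made up 5.13 to 81.5 CPM. The CLL marker CD5 lay between 21.9 and 69.6 CPM in HG3 and at no more than 1.35 CPM in the MEC2 and PCL12 libraries. The other CLL marker listed, FCER2 (CD23), was expressed in every library, at 285 to 3248 CPM. In unstimulated cells it was lower than in HG3 by a log2 difference of 2.34 in MEC2 and 1.89 in PCL12.

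Of the 42 genes, 38 had a promoter window in the RefSeq table for GRCh38.p14, which covers 250 bases before and 50 bases after the transcription start. No entry was found for MCM4, MCM5, GINS4 and CCNE2. The 8 letters of an E2F site were searched as TTTCCCGC, TTTCGCGC, TTTGCCGC and TTTGGCGC on both strands, where a forward and a reverse match may overlap. A match was present for 21 of the 38 genes (55.3%), against 3.99% of the 27305 genes in the table. CCAAT, searched on both strands, was present for 60.5% of the 38 genes and 39.7% of all genes. By role, the E2F letters were found for 4 of 5 MCM genes and for 1 of 4 genes of nucleotide supply. Of the genes called higher in unstimulated MEC2 than HG3, 8 of the 18 with a window held the letters, and of those not called 13 of 20 did. A match is a description of these letters, not a bound site.

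Windows are printed for 5 genes whose levels are described next, from 100 bases before to 20 bases after the start, 5′ to 3′, with the E2F letters in capitals. E2F1 (chr20:33686366-33686485, minus strand) has matches that begin 33 and 20 bases before the start, and E2F2 (chr1:23531214-23531333, minus strand) has 1 that begins 42 bases before it. RFC3 (chr13:33818049-33818168, plus strand) has 1 match that begins 55 bases before the start. MCM2 (chr3:127598311-127598430, plus strand) holds a forward and a reverse match that overlap and begin at bases 3 and 7 of the transcript. ORC6 (chr16:46689559-46689678, plus strand) is shown because it had the smallest P value between MEC2 and HG3 and none of these letters.
E2F1: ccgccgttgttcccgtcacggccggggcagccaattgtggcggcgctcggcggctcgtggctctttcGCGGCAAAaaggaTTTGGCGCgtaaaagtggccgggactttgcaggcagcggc
E2F2: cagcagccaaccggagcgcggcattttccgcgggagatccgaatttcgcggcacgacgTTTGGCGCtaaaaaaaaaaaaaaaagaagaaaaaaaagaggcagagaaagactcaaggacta
RFC3: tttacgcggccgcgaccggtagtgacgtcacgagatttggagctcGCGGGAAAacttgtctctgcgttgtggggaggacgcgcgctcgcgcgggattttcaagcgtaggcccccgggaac
MCM2: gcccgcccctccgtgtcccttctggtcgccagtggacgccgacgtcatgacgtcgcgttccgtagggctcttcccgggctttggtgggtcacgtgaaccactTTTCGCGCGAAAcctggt
ORC6: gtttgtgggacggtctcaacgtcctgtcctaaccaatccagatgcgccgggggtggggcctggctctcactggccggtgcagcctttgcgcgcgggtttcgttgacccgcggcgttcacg

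In unstimulated cells, part of the replication and G1/S genes stood higher in MEC2 and in PCL12 than in HG3. With edgeR's quasi-likelihood test and Benjamini-Hochberg adjustment over 31872 genes, 21 of the 42 were higher in MEC2 than in HG3 at an adjusted p under 0.05 and 0 were lower, while 4.81% of all genes tested were called higher and 4.97% lower. All 42 fitted differences were positive, with a median of 0.95 on the log2 scale (1.94-fold) against a median of 0 over all genes tested. The 3 MEC2 libraries lay above the 3 HG3 libraries without overlap for 34 of the 42 genes, as they did for 11.6% of all genes. In PCL12, 9 of the 42 genes were higher than in HG3 and 0 were lower, against 4.87% of all genes called higher and 4.57% lower, and the median difference was 0.74 (1.67-fold). Here 21 genes were higher without overlap and 0 lower (11.8% and 9.36% of all genes), and 40 fitted differences were positive. In bulk RNA, fewer cells in S phase and less RNA of these genes per cell cannot be told apart. The labels do not say that replicates came from separate cultures, so P values measure the spread between these samples, which may be technical.

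**Figure D1:**
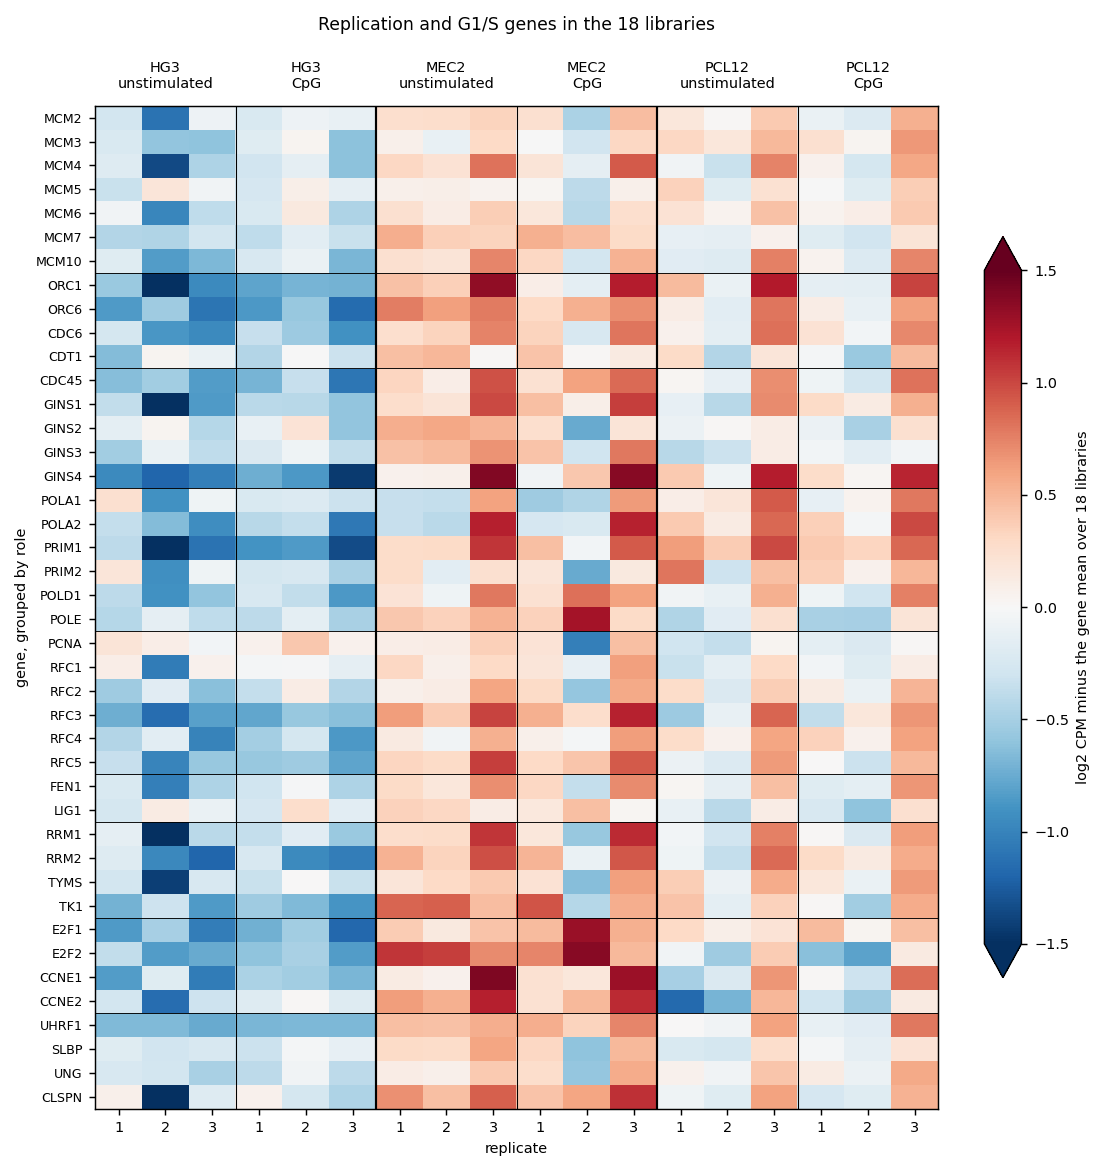
Level of each of the 42 genes (rows, grouped by role) in the 18 libraries (columns, replicates 1 to 3 of the 6 groups), as log2 CPM minus the gene's mean over all libraries, with colours saturating at 1.5. Most rows are blue in the 6 HG3 libraries, and replicate 3 of MEC2 and PCL12 is the reddest of its group for most genes. The scale does not compare genes with each other.

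Origin licensing factors showed large differences. ORC6, a subunit of the origin recognition complex, was at 34.6, 43.1 and 29.2 CPM in the unstimulated HG3 libraries, at 106, 95.7 and 107 CPM in MEC2, and at 67.6, 55.9 and 109 CPM in PCL12. All MEC2 and PCL12 libraries exceeded all HG3 libraries. The log2 difference was 1.53 ± 0.27 (SE) for MEC2 (edgeR adjusted p = 0.000244) and 1.12 ± 0.27 for PCL12 (edgeR adjusted p = 0.00556). ORC1, the large ATP-binding subunit of the same complex, was at 20.5, 8.46 and 15.6 CPM in HG3, at 41.1, 38.7 and 76.0 CPM in MEC2, and at 41.8, 28.1 and 68.8 CPM in PCL12. Its groups did not overlap with HG3 either, and it was 3.49-fold higher in MEC2 and 3.10-fold higher in PCL12 (edgeR adjusted p = 0.00538 and 0.0115). CDC6, which loads the helicase with ORC, also passed in both lines, with differences of 1.12 and 0.97. CDT1, its partner in loading, did not pass in either, with 0.55 in MEC2 (edgeR adjusted p = 0.237).

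Among the 7 MCM genes, 2 passed in MEC2 and 1 in PCL12. MCM2, a subunit of the replicative helicase, was at 208, 116 and 238 CPM in HG3, at 299.97, 302 and 316 CPM in MEC2, and at 282, 255 and 329.9 CPM in PCL12. Both lines lay above HG3 without overlap, and the differences of 0.71 ± 0.27 and 0.63 ± 0.27 did not pass (edgeR adjusted p = 0.113 and 0.175). MCM4 and MCM7 were the members called in MEC2 (1.06 and 0.80), and MCM3 was the one called in PCL12 (0.79). MCM6, of the same ring, and MCM10, which acts when the helicase fires, differed by 0.66 and 0.94 in MEC2 and did not pass. MCM5, another subunit of the ring, differed by 0.13 ± 0.23 in MEC2 (edgeR adjusted p = 0.825).

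Of CDC45 and the 4 GINS genes, 4 passed in MEC2 and 1 in PCL12. GINS4, a subunit of the helicase activator GINS, was at 14.6, 12.4 and 13.9 CPM in HG3, at 29.6, 29.8 and 73.9 CPM in MEC2, and at 37.1, 27.0 and 64.2 CPM in PCL12. It was 3.25-fold higher in MEC2 (log2 1.70 ± 0.41, edgeR adjusted p = 0.00788) and 3.13-fold higher in PCL12 (log2 1.64 ± 0.41, edgeR adjusted p = 0.0103). Neither call held without the mitochondria-rich libraries. The MEC2 call also did not hold without those and PCL12 replicates 2 and 3. GINS1 was at 33.2, 15.2 and 23.7 CPM in HG3, at 51.2, 48.9 and 84.8 CPM in MEC2, and at 39.2, 32.1 and 69.9 CPM in PCL12. Only its MEC2 libraries were clear of HG3, with a log2 difference of 1.35 ± 0.32 (edgeR adjusted p = 0.00541), while in PCL12 the 0.97 ± 0.32 did not pass (edgeR adjusted p = 0.0544). CDC45, which joins GINS and MCM in the working helicase, and GINS3 also passed in MEC2 (1.17 and 0.86) and had differences of 0.91 and 0.14 in PCL12, which did not pass. GINS2 did not pass in either line, with 0.71 in MEC2 and 0.18 in PCL12.

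The polymerase and primase genes split between members. PRIM1, the catalytic subunit of the primase that starts each new strand with RNA, was at 10.9, 3.66 and 6.63 CPM in HG3, at 17.3, 17.4 and 30.0 CPM in MEC2, and at 22.1, 18.5 and 28.4 CPM in PCL12. No HG3 library reached a MEC2 or PCL12 library. It had the smallest P value of the 42 genes in PCL12 (log2 1.69 ± 0.36, edgeR adjusted p = 0.00214) and was 3.03-fold higher in MEC2 (log2 1.60 ± 0.36, edgeR adjusted p = 0.00353). PRIM2, its regulatory subunit, differed by 0.32 ± 0.34 in MEC2 and 0.57 ± 0.34 in PCL12 and did not pass (edgeR adjusted p = 0.626 and 0.330). POLD1, the catalytic subunit of the lagging-strand polymerase, passed in MEC2 (0.96 ± 0.29, edgeR adjusted p = 0.0332), and POLA1, POLA2 and POLE did not pass in either line.

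PCNA, the sliding clamp that holds the polymerases on DNA, did not pass in either line. It was at 305, 285 and 258 CPM in HG3, at 285, 287 and 341 CPM in MEC2, and at 217, 208 and 274 CPM in PCL12. The HG3 libraries overlapped with those of both other lines, and the log2 differences were 0.11 (95% interval -0.45 to 0.66) for MEC2 and -0.28 (-0.84 to 0.28) for PCL12, so neither interval reached a 2-fold change. RFC3, a subunit of the clamp loader, was at 41.8, 31.4 and 39.4 CPM in HG3, at 107, 90.4 and 140.2 CPM in MEC2, and at 47.4, 63.9 and 127 CPM in PCL12. It was 2.99-fold higher in MEC2 (log2 1.58 ± 0.32, edgeR adjusted p = 0.0013) and 2.12-fold higher in PCL12 (log2 1.08 ± 0.32, edgeR adjusted p = 0.0283). Without PCL12 replicates 2 and 3, which hold transcripts typical of MEC2, the PCL12 difference of RFC3 was 0.35. RFC5 passed in MEC2 alone (2.30-fold), and RFC1, RFC2 and RFC4 in neither line. Whether RFC3 and PCNA differed from each other was not tested.

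In the joining of Okazaki fragments, the flap endonuclease FEN1 passed in MEC2 (0.94 ± 0.29, edgeR adjusted p = 0.0369), and the ligase LIG1 did not (0.33 ± 0.24, edgeR adjusted p = 0.437). In nucleotide supply, 2 of 4 genes passed in MEC2 and 0 in PCL12. TK1, the thymidine kinase of dividing cells, was at 36.7, 48.4 and 33.5 CPM in HG3, at 110.0, 112 and 82.9 CPM in MEC2, and at 80.8, 54.2 and 76.8 CPM in PCL12. Its groups did not overlap with HG3, and the difference passed in MEC2 (log2 1.36 ± 0.30, edgeR adjusted p = 0.00326) but not in PCL12 (0.84 ± 0.30, edgeR adjusted p = 0.0851). RRM2, the regulated subunit of ribonucleotide reductase, was at 84.6, 49.6 and 42.5 CPM in HG3, at 139, 122 and 189.6 CPM in MEC2, and at 92.4, 75.6 and 175 CPM in PCL12. One PCL12 library fell below the highest HG3 library, and the difference passed in MEC2 (1.35 ± 0.33, edgeR adjusted p = 0.00705) but not in PCL12 (0.96 ± 0.33, edgeR adjusted p = 0.0661). Without the mitochondria-rich HG3 library alone, RRM2 narrowly missed in MEC2 (edgeR adjusted p = 0.051). Without both mitochondria-rich libraries it passed. TYMS, the thymidylate synthase, differed by 0.84 in MEC2 and 0.85 in PCL12 and did not pass. RRM1, the large subunit of ribonucleotide reductase, differed by 1.17 ± 0.40 in MEC2 and did not pass either (edgeR adjusted p = 0.0721).

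All 4 genes of the G1/S switch passed in MEC2, and E2F1 alone passed in PCL12. E2F1, an activating E2F factor, was at 43.5, 55.5 and 38.3 CPM in HG3, at 102, 86.8 and 105 CPM in MEC2, and at 96.5, 83.5 and 90.3 CPM in PCL12. HG3 stood below both lines without overlap, by 1.10 ± 0.25 against MEC2 (edgeR adjusted p = 0.00425) and by 0.98 ± 0.25 against PCL12 (edgeR adjusted p = 0.0117). E2F2, a second activating factor, was at 32.5, 23.4 and 24.9 CPM in HG3, at 88.4, 86.0 and 68.7 CPM in MEC2, and at 40.6, 29.0 and 54.8 CPM in PCL12. MEC2 stood clear of both lines, with 1.59 ± 0.29 against HG3 (edgeR adjusted p = 0.000439) and 0.97 ± 0.29 against PCL12, which did not pass (edgeR adjusted p = 0.0904). CCNE1, cyclin E1, was at 16.3, 25.7 and 14.1 CPM in HG3, at 31.9, 30.6 and 77.3 CPM in MEC2, and at 20.6, 25.1 and 46.4 CPM in PCL12. CCNE2, cyclin E2, was at 10.6, 5.83 and 10.3 CPM in HG3, at 19.8, 18.6 and 28.9 CPM in MEC2, and at 5.71, 7.92 and 18.2 CPM in PCL12. For both cyclins MEC2 was clear of HG3 while PCL12 overlapped with it. Both passed against HG3 in MEC2 (1.32 ± 0.40 and 1.33 ± 0.38, edgeR adjusted p = 0.0351 and 0.0225), and without MEC2 replicate 3 neither did, with edgeR adjusted p = 0.3001 and 0.1202.

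UHRF1, which guides maintenance methylation to newly copied DNA, had the smallest SD relative to its mean in unstimulated HG3, at 55.8, 55.5 and 52.2 CPM, and stood at 121, 119 and 128 CPM in MEC2 and at 88.0, 84.6 and 133 CPM in PCL12. It was 2.25-fold higher in MEC2 (log2 1.17 ± 0.25, edgeR adjusted p = 0.00238) and 1.87-fold higher in PCL12 (log2 0.90 ± 0.25, edgeR adjusted p = 0.0202). SLBP, which binds histone mRNA, and UNG, which removes uracil from DNA, did not pass in either line. CLSPN, the checkpoint adaptor claspin, differed by 1.26 ± 0.59 in MEC2 and did not pass (edgeR adjusted p = 0.225), with the largest standard error of the 42 genes.

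**Figure D2:**
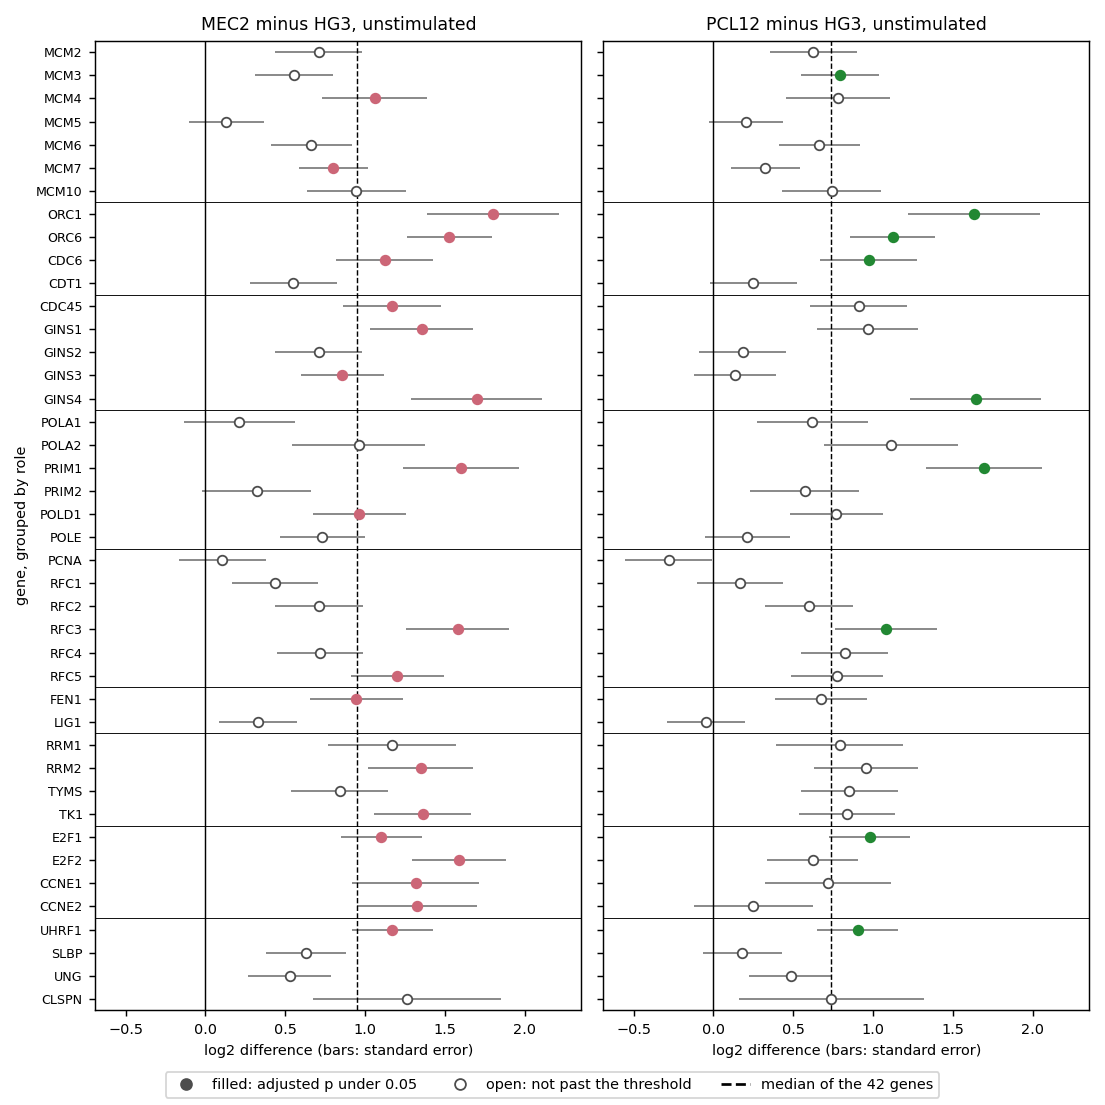
Log2 difference of each of the 42 genes between unstimulated MEC2 and HG3 (left) and unstimulated PCL12 and HG3 (right) with its standard error, filled where the adjusted p was under 0.05. The points lie right of 0 for 42 and 40 genes, and the dashed medians stand at 0.95 and 0.74. Both panels share the 3 HG3 libraries.

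Between unstimulated MEC2 and PCL12 no gene passed. With edgeR's test, 0 of the 42 passed in either direction (0.524% of all genes were called higher in MEC2 and 1.53% lower), 4 had an unadjusted P under 0.05 (11% of all genes in either direction), and DESeq2 called 1. Those 4 were E2F2, CCNE2, GINS3 and MCM7, all higher in MEC2. The median difference was 0.27, and the MEC2 libraries exceeded the PCL12 libraries without overlap for 10 genes and lay below them for 0 (7.6% and 9.75% of all genes). Without the mitochondria-rich libraries, 2 genes (GINS3 and E2F2) were called higher in MEC2 and 0 lower, against 1.03% and 2.37% of all genes.

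The counts of calls depended on single libraries. For MEC2 against HG3 the number called was 10 without unstimulated MEC2 replicate 3. It was 18 without both mitochondria-rich libraries (4.32% of all genes called higher and 5.35% lower). It was 26 without those and the 4 PCL12 libraries with transcripts typical of MEC2 (4.67% and 5.6%). Without the mitochondria-rich libraries alone, MCM4, ORC1, GINS4, POLD1, FEN1, CCNE1 and CCNE2 no longer passed, while GINS2, POLE, RFC2 and RFC4 did. For PCL12 against HG3 it was 2 without unstimulated PCL12 replicate 3, 4 without HG3 replicate 3 and 5 without HG3 replicate 2. The share of all genes called in these fits without a single library is not given here. When PCL12 was left with replicate 1 alone, the spread came from the other groups, so only differences are given. The median difference over the 42 genes was 0.58 in that fit. Of the 9 genes called in PCL12, PRIM1 then differed by 1.65, ORC1 by 1.51, GINS4 by 1.46, E2F1 by 1.10 and ORC6 by 0.94. MCM3, CDC6 and UHRF1 differed by 0.79, 0.74 and 0.71. With the mitochondria-rich libraries left out as well, ORC6 and E2F1 differed by 1.12 and 1.28. PRIM1, ORC1, GINS4, MCM3, CDC6, RFC3 and UHRF1 then differed by 0.27 to 1.42. Without the mitochondria-rich libraries alone, 7 genes were called higher in PCL12 than in HG3 (4.71% of all genes higher and 5.27% lower). These were MCM3, ORC6, PRIM1, RFC4, TK1, E2F1 and UHRF1. ORC6, E2F1, E2F2, RFC3, UHRF1, TK1 and PRIM1 were called in MEC2 under each of the 17 settings tried.

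The CpG-stimulated libraries gave a second set of libraries for the same lines, though from the same replicate series. There 16 of the 42 genes were higher in MEC2 than in HG3 and 0 lower (4.61% of all genes called higher and 4.52% lower), and 15 of them were among the 21 found in unstimulated cells, which is 93.8% of the 16 and 71.4% of the 21. For PCL12 against HG3 it was 7 genes higher and 0 lower (4.49% and 4.16% of all genes), of which 5 were among the 9, namely ORC6, GINS4, PRIM1, E2F1 and UHRF1. In that comparison the median over all genes tested was 0.11, and that of the 42 genes was 0.54. E2F2 was the 1 gene called between stimulated MEC2 and PCL12 (0.609% of all genes called higher), with 69.6, 108 and 58.8 CPM in MEC2 and 27.2, 24.1 and 46.2 CPM in PCL12. The groups did not overlap, and the difference was 1.28 ± 0.29 (edgeR adjusted p = 0.0146). Without the mitochondria-rich libraries, 18 genes were higher in stimulated MEC2 than in HG3 (4.76% of all genes) and 7 in stimulated PCL12 (6.05%), with 0 lower. E2F2 then no longer passed between MEC2 and PCL12 (0.57% of all genes called higher). With PCL12 replicates 2 and 3 left out as well, 26 genes were higher in stimulated MEC2 than in HG3 and 0 lower (5.01% and 4.82% of all genes). That left PCL12 with replicate 1 alone, so no calls are given for it there.

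Further genes of the cell cycle were read from lists beside the 42, against 4.81% of all genes called higher and 4.97% lower in MEC2 than in HG3, and 4.87% and 4.57% in PCL12. Of 44 further replication genes, 14 were higher and 0 lower in MEC2 than in HG3, among them ATAD2 (1.46), TICRR (1.59), DNA2 (1.59) and MCM8 (1.37). In PCL12, 5 were higher and 1 was lower than in HG3, and the lower one was GMNN, geminin, which keeps CDT1 from loading helicase anew, at 63.3, 51.9 and 53.7 CPM in HG3 and 13.05, 15.1 and 27.3 CPM in PCL12. Of 30 G1/S regulators, 6 were higher and 2 lower in PCL12 than in HG3, and 8 were higher and 5 lower in MEC2, with the kinase inhibitor CDKN2A at 1.63 and E2F8 at 1.71 among the higher and CCND2, cyclin D2, at -2.50 among the lower. CDKN1A, the p21 inhibitor, was at 269, 141 and 384 CPM in HG3, at 114, 128 and 43.8 CPM in MEC2, and at 30.3, 37.0 and 21.1 CPM in PCL12, and was lower than in HG3 in both (edgeR adjusted p = 0.0167 and 1.55e-05). Of 25 G2/M genes, 17 were higher in MEC2 and 5 in PCL12, with 0 lower, and their medians were 0.91 and 0.47. With PCL12 left with replicate 1 alone, the log2 difference from HG3 was -2.09 for GMNN and -3.11 for CDKN1A. With the mitochondria-rich libraries left out as well, CDKN1A did not pass in MEC2 (log2 -1.76, edgeR adjusted p = 0.0649). With both sets left out, 14, 10 and 19 genes of the 3 lists were higher in MEC2. There 0, 6 and 0 were lower, against 4.67% of all genes called higher and 5.6% lower. Without the mitochondria-rich libraries alone, 4, 3 and 5 genes of the 3 lists were higher in PCL12. There 1, 4 and 0 were lower, against 4.71% of all genes called higher and 5.27% lower.

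**Figure D3:**
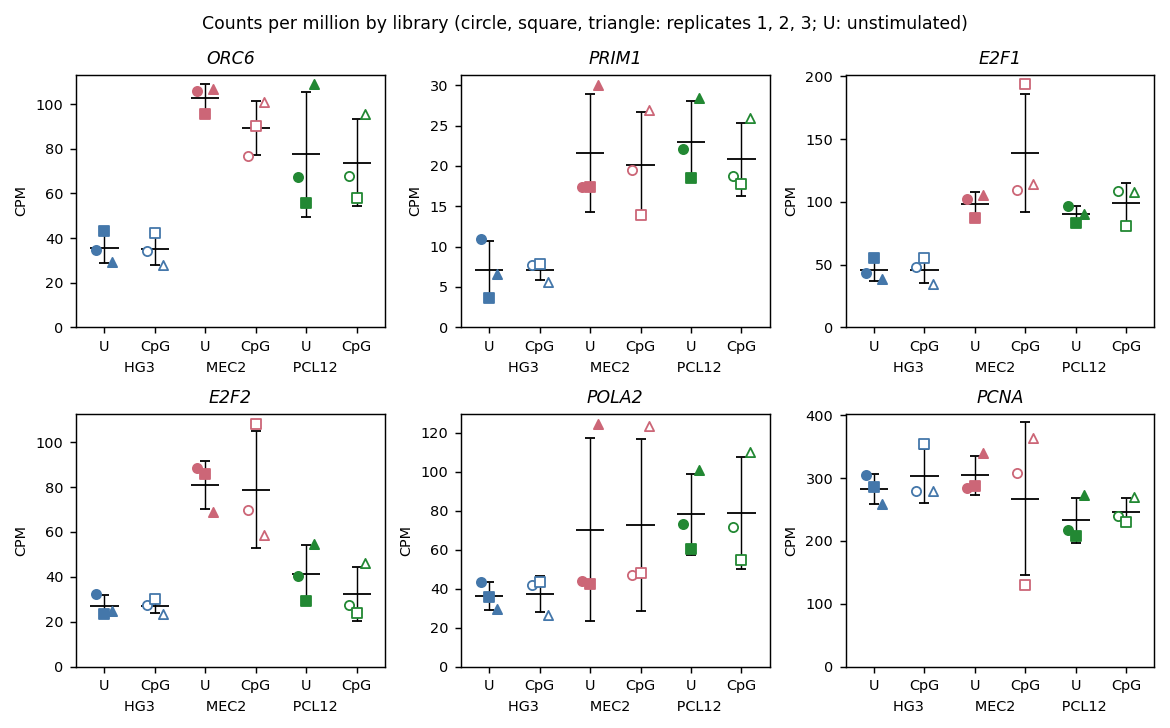
CPM of 6 genes in every library, with the mean and SD of the 3 replicates of each group (filled symbols unstimulated, open symbols CpG). ORC6, PRIM1 and E2F1 lie lower in HG3 than in both other lines, E2F2 is highest in MEC2, POLA2 is high in replicate 3 of MEC2, and PCNA has 1 low value of 130.4 CPM in CpG-stimulated MEC2.

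Replicate 3 of MEC2 and PCL12 stood above replicates 1 and 2 for most of the 42 genes, a pattern noticed after the values were seen. The median log2 difference of replicate 3 from the mean of the others was 0.32 in unstimulated MEC2, 0.59 in CpG-stimulated MEC2, 0.54 in unstimulated PCL12 and 0.64 in CpG-stimulated PCL12, against 0.01 and -0.26 in HG3. Replicate 3 was the highest of its group in all 4 MEC2 and PCL12 groups for 30 of the 42 genes, and for 12% of genes averaging 1 CPM or more. POLA2, a subunit of the polymerase that extends primers, was at 43.9, 42.2 and 125 CPM in unstimulated MEC2 and at 46.8, 47.7 and 124 CPM after CpG. The further replication genes stood higher in replicate 3 too. Their medians were 0.40 and 0.47 in unstimulated and CpG-stimulated MEC2, 0.61 and 0.49 in PCL12, and -0.05 and -0.15 in HG3. The G2/M genes did not share this in MEC2, where their median was -0.32 in unstimulated and 0.00 in CpG-stimulated cells, but they did in PCL12, with 0.51 and 0.42. CDKN1A was lowest in replicate 3 in these 4 groups. The labels give no culture, date or batch for a replicate number, so what set replicate 3 apart was not tested. Without replicate 3 of MEC2 and PCL12, 15 genes were called higher in MEC2 and 5 in PCL12 than in HG3. The share of all genes called in that fit is not given here. A general fall in calls therefore cannot be told from a fall in these genes.

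After 4 h of CpG, no replication or G1/S gene passed the test in any line. With edgeR's test, 0 of the 42 were called in HG3, MEC2 or PCL12, where 0.00314%, 0.00314% and 0% of all genes were called higher and 0% lower, and DESeq2 and limma-voom also called 0. At an unadjusted P under 0.05, 0 genes passed in HG3, 1 in MEC2 and 0 in PCL12, against 3.73%, 2.46% and 2.09% of all genes. None met the study's definition of a differentially expressed gene, a P value under 0.01 with a log2 change of at least 1 in size, which 0.496%, 0.251% and 0.116% of all genes met in edgeR. The study applied that definition to limma P values, and with limma-voom 0 of the 42 met it too, against 0.882%, 0.477% and 0.649% of all genes. The series' description puts samples of 1 line with the same number together, and with this pairing as a block in edgeR the unadjusted count was 1 in HG3 (CLSPN), 2 in MEC2 (GINS2 and E2F1) and 0 in PCL12, against 3.59%, 3.41% and 1.69% of all genes. Adjusted calls were again 0 of the 42, while the block raised them over all genes to 0.135%, 0.333% and 0.0471%. For comparison, NFKBIZ, a known target of TLR9 signals, rose in MEC2 from 36.7, 24.2 and 24.5 CPM to 144, 160.1 and 87.2 CPM (log2 2.20 ± 0.33, edgeR adjusted p = 0.0154). It did not pass in PCL12 (log2 1.71 ± 0.33, edgeR adjusted p = 0.541) or in HG3 (log2 0.66 ± 0.32, edgeR adjusted p = 1).

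The intervals bound how large a change could have been missed. The 95% interval lay within a 2-fold change in both directions for 37 of the 42 genes of HG3, for 37 of MEC2 and for 40 of PCL12, and for all 42 in the mean over the lines, where edgeR and DESeq2 called 0 genes (edgeR called 0.00941% of all genes higher) and 0 passed an unadjusted P under 0.05 (4.04% of all genes). For the median gene the interval reached 0.59 on the log2 scale to either side of the estimate in each line. Differences in the CpG change (MEC2 minus HG3, PCL12 minus HG3, MEC2 minus PCL12) were called by edgeR for 0 genes, and 0 passed an unadjusted P under 0.05, against 4.1%, 4.16% and 3.23% of all genes. With the replicate block in edgeR the unadjusted count was 2 for the mean over the lines (CLSPN and GINS2), 5 for MEC2 minus HG3 (CLSPN, ORC1, GINS2, TYMS and RRM1), 2 for PCL12 minus HG3 (CLSPN and ORC1) and 0 for MEC2 minus PCL12, against 4.54%, 3.53%, 2.39% and 1.36% of all genes. Adjusted calls were 0 of the 42 in each, against 0.555%, 0.141%, 0.069% and 0.0126% of all genes. In HG3 pair 2, with the mitochondria-rich library, the log2 ratios of CLSPN, TYMS, RRM1 and ORC1 were 3.51, 1.42, 1.39 and 1.14, and in pairs 1 and 3 they lay between -0.27 and 0.25. With the block in limma-voom these 4 counts were 0. The 95% interval of the difference in the unblocked edgeR fit lay within 2-fold for 13, 22 and 20 genes, and for the other genes a 2-fold difference lay inside the interval.

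Pair by pair, the median log2 ratio of CpG to unstimulated over the 42 genes was -0.05, 0.32 and -0.07 for the HG3 pairs. It was -0.02, -0.26 and -0.00 for the MEC2 pairs and -0.04, -0.02 and -0.02 for the PCL12 pairs. The pairs far from 0 are those that contain the mitochondria-rich libraries, HG3 pair 2 through its unstimulated sample and MEC2 pair 2 through its stimulated sample. A ratio above 0 in all 3 pairs was seen for 3 genes of HG3 (GINS3, RFC2 and CCNE2), for E2F1 alone in MEC2 and for RFC4 alone in PCL12. A ratio below 0 in all 3 was seen for ORC6 in HG3, for 7 genes of MEC2 and for 6 of PCL12. Over all genes, these shares were 7.08% to 7.94% above 0 and 7.13% to 8.29% below 0.

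**Figure D4:**
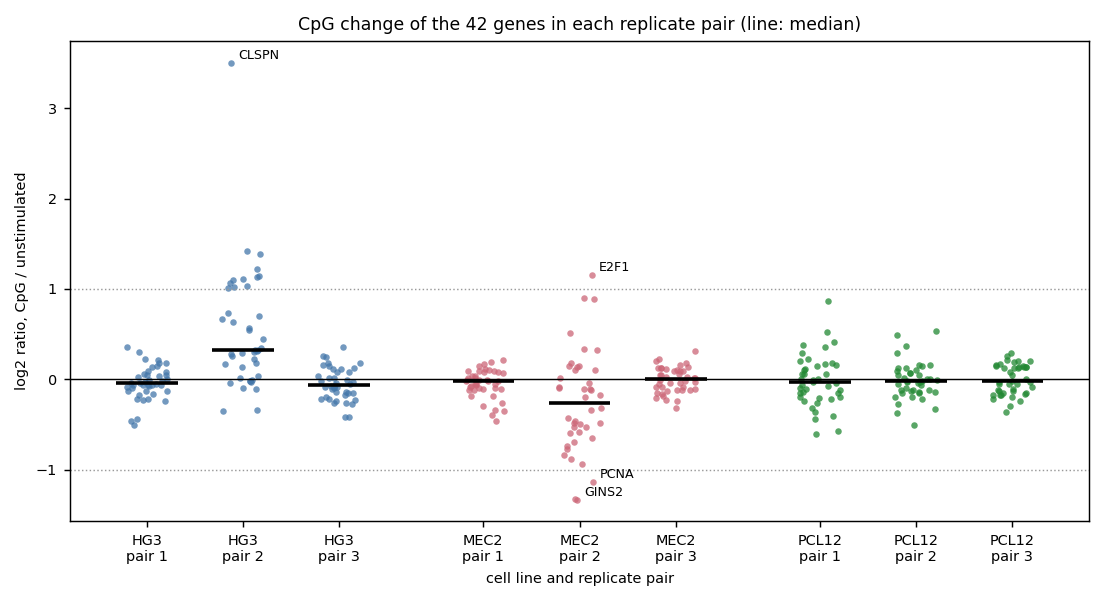
Log2 ratio of CpG-stimulated to unstimulated CPM for each of the 42 genes (points) in each replicate pair of HG3, MEC2 and PCL12, with the median as a bar and a 2-fold change dotted. The bars stand between -0.07 and 0.00 except in HG3 pair 2 (0.32) and MEC2 pair 2 (-0.26), where the points also scatter most.

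The genes with the smallest P values after CpG were followed through every library. GINS2, of the helicase activator GINS, was at 61.7, 63.3 and 60.0 CPM in unstimulated MEC2 and at 50.2, 25.1 and 48.3 CPM after CpG. All stimulated libraries lay below all unstimulated ones, by a log2 change of -0.58 ± 0.27 with an edgeR P value of 0.0423 that adjustment took to 1 (0.411 to 1 over the alternatives). The value of 25.1 CPM belongs to the mitochondria-rich library, and without it the change was -0.32, with an edgeR P value of 0.241. With the replicate block the P value of GINS2 was 0.00311 in edgeR and 0.0092 in limma-voom, and its pair ratios were -0.30, -1.33 and -0.31. E2F1 in MEC2 went from 102, 86.8 and 105 CPM to 109, 194 and 114 CPM. The groups did not overlap, and the change of 0.50 ± 0.25 had an edgeR P of 0.057, but the value of 194 CPM belongs to the mitochondria-rich library, without which the change was 0.19. With the block the P value of E2F1 was 0.0297 in edgeR and 0.0229 in limma-voom. SLBP in MEC2 was at 159, 157 and 196 CPM before and 161, 85.4 and 181 CPM after CpG, and its fitted change of -0.26 turned to 0.01 without that library.

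In HG3 the leading genes had their lowest value in 1 unstimulated library, the mitochondria-rich replicate 2. GINS1 was at 33.2, 15.2 and 23.7 CPM before and 32.4, 31.9 and 28.4 CPM after CpG, and TYMS at 135, 61.1 and 138 CPM before and 129, 164 and 129 CPM after it. Both genes overlapped between the groups. CCNE2 was at 10.6, 5.83 and 10.3 CPM before and 11.3, 12.97 and 11.3 CPM after CpG, the only gene of the 42 without overlap between these groups in HG3 (2.14% of all genes were higher without overlap). The changes were 0.36 ± 0.32, 0.34 ± 0.30 and 0.40 ± 0.37, with edgeR P values of 0.266, 0.281 and 0.289. In MEC2, E2F1 was the 1 gene above and GINS2 the 1 gene below without overlap (2.52% and 2.2% of all genes), and in PCL12 there were 0 (2.53% and 2.02%).

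In PCL12, E2F2 was at 40.6, 29.0 and 54.8 CPM before and at 27.2, 24.1 and 46.2 CPM after CpG. The log2 ratio of its pairs was -0.57, -0.27 and -0.24, while its group change of -0.35 ± 0.29 did not pass, with an edgeR P value of 0.232. ORC1 was also lower after CpG in all 3 pairs, at 41.8, 28.1 and 68.8 CPM before and 27.5, 27.4 and 60.9 CPM after it, with a group change of -0.26 ± 0.40. With single libraries left out, the change of ORC1 ran from -0.74 to 0.12, so its direction was not stable. GINS1 went from 39.2, 32.1 and 69.9 CPM to 52.0, 46.5 and 61.9 CPM, and its change ran from -0.02 to 0.57. The groups overlapped for all 3 genes, and replicate 3 was the highest of each.

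The mitochondria-rich libraries held single replication genes far from their group. Unstimulated HG3 replicate 2 had CLSPN at 2.63 CPM, against 38.9 and 32.2 CPM in the other replicates, and 7 of the 42 genes lay at least 2-fold below the mean of the others while 0 lay as far above, against 20.2% and 5.22% of the 8701 genes averaging at least 10 CPM. CpG-stimulated MEC2 replicate 2 had PCNA at 130.4 CPM against 308 and 364 CPM and POLE, the leading-strand polymerase, at 556 CPM against 299 and 286 CPM, and 5 genes lay at least 2-fold low, against 7.75% of all such genes. In other libraries, 6 of the 42 lay at least 2-fold above their group in CpG-stimulated MEC2 replicate 3 and 6 in unstimulated PCL12 replicate 3 (4.56% and 2.78% of such genes). Across the 42 genes, the deviation of the HG3 library had a Pearson r of 0.44 with the GC content of the longest coding transcript and of -0.45 with its log2 length. In the MEC2 library these were 0.40 and 0.42. In the other 16 libraries the r with GC ran from -0.57 to 0.49, so correlations of this size were not particular to the mitochondria-rich ones. These are correlations over genes of 1 library, with no P value, and the deviations within a group share their libraries. The cause of these deviations was not tested. The line differences themselves had an r with GC of -0.14 in both MEC2 and PCL12 against HG3.

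**Figure D5:**
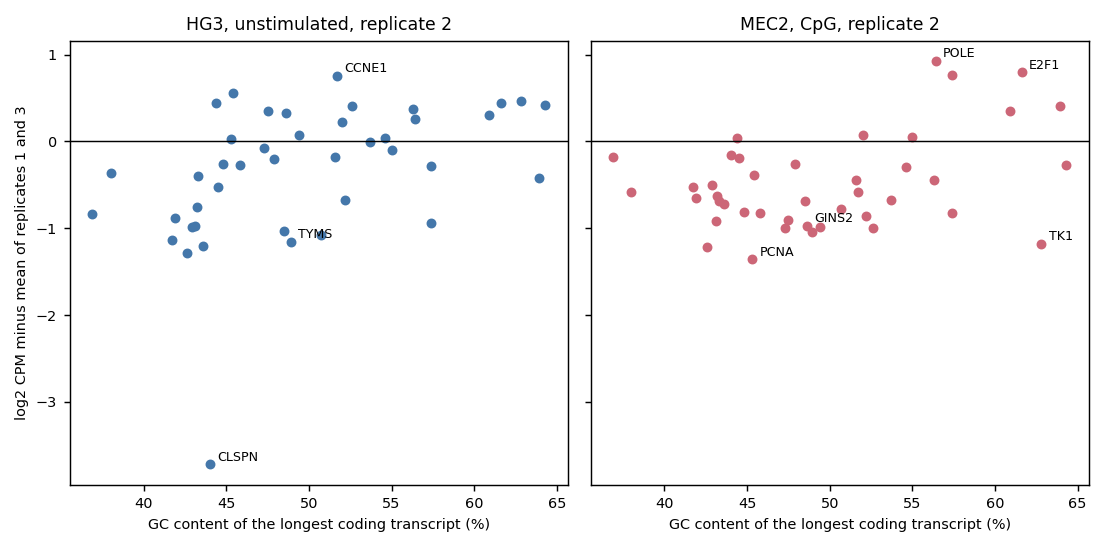
Deviation of each of the 42 genes in unstimulated HG3 replicate 2 (left) and CpG-stimulated MEC2 replicate 2 (right) from the mean log2 CPM of the other replicates of its group, against the GC content of the longest coding transcript in percent. CLSPN stands at -3.72 in HG3, and in MEC2 PCNA stands at -1.36 and POLE at 0.93.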

How the data were processed

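RNA of 18 samples of HG3, MEC2 and PCL12 cells was sequenced. The values are raw read counts per gene symbol deposited by the authors, without normalization. The submitters' processing notes list FastQC, Trimmomatic, STAR, featureCounts and MultiQC and the build hg38, and versions, annotation and duplicate handling are not given in the sources used here. The labels name a Lexogen QuantSeq library kit and a Promega RNA kit while the methods name a Qiagen kit and a stranded reverse protocol, so levels were not compared between genes. PCR copies may have been counted as separate reads, and replicates of the same group differed by chi-square values per gene of 17.4 to 380, so none of these were counted as 1 sample. A count of 0 allows 3 counts, 0.0429 to 0.155 CPM, for counting error only.

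Groups came from the labels. Genes with at least 10 counts over the 18 libraries were kept (31872 of 42248 with any count), including all 42 genes. The deposited counts were scaled by TMM and fitted in edgeR 4.0.16 (R 4.3.3) with 1 mean per group and robust estimation of dispersion (12 residual degrees of freedom), and Benjamini-Hochberg adjustment ran over every gene tested. Differences are on the log2 scale. Log2 CPM used a prior count of 2. Alternatives were DESeq2 1.42.0, limma-voom (limma 3.58.1), RLE scaling, library totals without mitochondrial genes, filterByExpr, no filter, a fit of the compared groups alone, a prior count of 0.5, replicate blocks, each library left out in turn, and the mitochondria-rich libraries or the PCL12 libraries with transcripts typical of MEC2 left out. Chosen after seeing the data were leaving out both sets, leaving out replicate 3 of MEC2 and PCL12, using the CpG-stimulated libraries for the line comparison, and leaving out the doubtful libraries there and for the further gene lists. The fits were tested on simulated data.

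The series' description says that each replicate series held 1 stimulated and 1 unstimulated sample, so numbers pair samples within a line. Deviations from the group means correlated by 0.259, 0.212 and 0.480 for the HG3 pairs. For MEC2 they correlated by 0.189, -0.0133 and 0.611, and for PCL12 by 0.607, 0.494 and 0.515. In MEC2, unlike numbers correlated more for replicates 1 and 2 (stimulated 1 with unstimulated 2 at 0.449, stimulated 2 with unstimulated 1 at 0.388), so the pairing of these rests on the description alone. The members and gene lists were chosen with earlier results of these data known. Genes given in every library are the 6 with the smallest P among those called in each unstimulated comparison, the 3 with the smallest P after CpG in each line, and E2F1, CCNE1, CCNE2, MCM2, PCNA and RRM2. POLA2, CLSPN, POLE, GMNN and CDKN1A were chosen for such values after they were seen. GC content and length are those of the longest coding transcript in GENCODE 44, and promoters are from RefSeq. Calculations outside R used Python 3.11.15.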

Additional observations from a re-analysis of the deposited data

Results flagged for a closer look

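CCNE2, cyclin E2, was higher after CpG in all 3 pairs of HG3 and lower in all 3 pairs of MEC2, and it was singled out for that. The difference of the CpG change, MEC2 minus HG3, was -0.547 on the log2 scale, with a 95% interval from -1.63 to 0.53, and edgeR's quasi-likelihood test of this difference gave a P value of 0.308 and did not pass. The pair ratios were 0.09, 1.15 and 0.12 in HG3 and -0.40, -0.04 and -0.05 in MEC2, and the ratio farthest from 0 is that of HG3 pair 2, whose unstimulated library is mitochondria-rich. Single outlying samples were not tested for within the groups of 3.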

How the results depend on the processing

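The number of genes called higher in unstimulated MEC2 than HG3 (21) was 15 to 26 under the alternatives that keep every replicate or leave out a set of libraries, and 10 to 22 with single libraries left out, lowest without MEC2 replicate 3. For PCL12 above HG3 (9) it was 14 with library totals without mitochondrial genes, 18 with no filter, 5 with the compared groups alone, 5 without replicate 3 of MEC2 and PCL12, and 2 to 12 with single libraries left out. For MEC2 above PCL12 (0) it was 1 with no filter, with DESeq2, with the groups alone, without replicate 3 and in CpG-stimulated libraries, 2 without the mitochondria-rich libraries, and 0 to 2 with single libraries left out. Counts for PCL12 are not given for fits that leave it with replicate 1 alone, where it has no spread of its own. After CpG, the number at an unadjusted P under 0.05 was 1 in HG3 with edgeR and a replicate block (0 without it). In MEC2 (1) it was 2 with the block in edgeR or limma-voom and without replicate 3, 0 with no filter, DESeq2, the groups alone, or either set of exclusions with the mitochondria-rich libraries, and 0 to 2 with single libraries left out. In PCL12 (0) it was 0 to 1 with single libraries left out. With the edgeR block it was 2 for the mean over the lines, 5 for MEC2 minus HG3 and 2 for PCL12 minus HG3 (0 each in the unblocked fit of all libraries and with the limma-voom block), and for the mean it was 1 (E2F2) without both sets of libraries. No replicate block changed an adjusted CpG call. The median CpG change over the 42 genes in MEC2 (-0.087) was 0.0978 without the mitochondria-rich libraries, 0.105 without both sets, and -0.342 to 0.105 with single libraries left out. In PCL12 (-0.0103) it was 0.00564 with no filter, 0.00163 with filterByExpr, -0.0213 with limma-voom, -0.00297 with the groups alone, -0.0331 without PCL12 replicates 2 and 3, -0.0455 without both sets, -0.0733 without replicate 3, and -0.267 to 0.198 with single libraries left out. The mean over the lines (0.0209) was -0.00655 with limma-voom, -0.0114 without replicate 3, and -0.0607 to 0.0856 with single libraries left out. The change of SLBP in MEC2 turned to 0.00231 and 0.00874 without the mitochondria-rich libraries and without both sets (-0.472 to 0.00917 with single libraries left out). CCNE2 in PCL12 against HG3 turned to -0.632 without PCL12 replicates 2 and 3, -0.834 without both sets and -0.372 without replicate 3 (-0.372 to 0.543). In PCL12 after CpG, ORC1 ranged from -0.741 to 0.122 and GINS1 from -0.0192 to 0.570 with single libraries left out. Beyond what a setting leaves out, the cause was not tested. Means over the libraries reached 10 CPM for all 42 genes, and the lowest single value was 2.63 CPM (CLSPN in unstimulated HG3 replicate 2).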
